A study of Mus musculus with 12 samples.

Results

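The pattern recognition sensors of innate immunity were examined in C57MG cells, a mouse mammary epithelial cell line, treated with the secreted proteins Rspo2 and Wnt3a. The set comprised 10 genes in 6 roles: the surface receptors Tlr2 and Tlr4 with their co-receptor Cd14, the endosomal receptor Tlr3, the adaptor Myd88, the cytosolic RNA helicases Ddx58, Ifih1 and Dhx58, the kinase Eif2ak2, and the nucleic acid sensor Zbp1. The probes of each gene were found by the symbol or older alias printed for each spot of the array, with no measured value used, so Dhx58 was also sought as D11Lgp2e. They were represented by 17 of the 41174 probes, and 14 of these were among the 22751 tested probes, those that exceeded background in every well of 1 treatment group or more. All 10 genes kept at least 1 tested probe.

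Each of 4 groups consisted of 3 wells of this 1 line, cultured for 24 h in medium without serum or insulin. One group received the carrier protein bovine serum albumin (BSA), another 100 ng/ml recombinant human Rspo2, another 100 ng/ml recombinant mouse Wnt3a, and the last both factors, each at 100 ng/ml. RNA of each well was hybridized to its own single-colour array, so p-values measure the spread between wells of 1 line and its handling. The question put to each sensor was whether Rspo2, Wnt3a or both altered its mRNA level relative to BSA, and whether Rspo2 added to Wnt3a. The 75th percentile of signal lay between 773.9 and 1146 intensity units on the 12 arrays, and 51.3% to 64.2% of probes were well above background, the highest share being on BSA replicate 1. The 12 arrays lay on 3 slides: the 3 BSA arrays with Rspo2 replicate 1, then Rspo2 replicates 2 and 3 with Wnt3a replicates 1 and 2, then Wnt3a replicate 3 with the 3 combination arrays. BSA therefore never shared a slide with Wnt3a or with the combination.

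The epithelial label was set against marker genes. Of 5 luminal markers, Krt8 was above background on all 12 arrays, Krt18 on 3, Krt19 and Epcam on 2 each, and Cdh1, the epithelial cadherin, on 0. Of 5 basal and myoepithelial markers, Krt14, Acta2 and Trp63 were above background on all 12, Krt5 on 10 and Cnn1 on 4. All 5 mesenchymal markers, Vim, Col1a1, Col1a2, Pdgfrb and Cdh2, were above background on all 12. Of 7 leukocyte markers, Lyz2 and Cd68 were above background on all 12 arrays, Csf1r and Cd3e on 11, and Ptprc, Adgre1 and Itgam, which define leukocytes and macrophages, on 1 each. The line thus carried basal and mesenchymal transcripts, while its luminal markers other than Krt8 were at or near background.

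Pattern recognition receptors are proteins encoded in the germline that bind molecular features of microbes or of damaged cells. Toll-like receptors at the cell surface recognise bacterial lipids and lipoproteins, Tlr3 in endosomes recognises double-stranded RNA, and most Toll-like receptors signal through the adaptor Myd88 to NF-kB. In the cytosol Ddx58 (RIG-I) and Ifih1 (MDA5) bind viral RNA and signal through the mitochondrial adaptor Mavs to type I interferon, and Dhx58 (LGP2), a relative without signalling domains, modulates both. Eif2ak2 (PKR) is activated by double-stranded RNA and stops translation through eIF2 alpha, and Zbp1 binds nucleic acid in the Z form and can trigger necroptosis. Many of these sensors are themselves interferon-stimulated genes, whose promoters carry the interferon-stimulated response element (ISRE), and in the mammary gland Tlr2 and Tlr4 are known for sensing the bacteria that cause mastitis.

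Promoter sequence covered 250 bases before to 50 bases after the gene start in the GRCm38.p6 assembly. The promoter set used here held 6 of the 10 genes, without Tlr4, Cd14, Dhx58 and Zbp1. A core ISRE, GAAA and GAAA with 2 bases of any kind between them, sought on both strands, lay in 4 of these 6, whereas 3.44% of all 32851 promoters of the same length held it. Windows of 30 bases around the 4 matches are shown on the strand of the gene, 5′ to 3′, with the matched letters in capitals, because the element is shared by sensors that differed in their response. All 4 genes lie on the minus strand.
Myd88, chr9:119340039-119340068: gagcttctcgGAAAGCGAAAgaaggagggg
Ddx58, chr4:40239804-40239833: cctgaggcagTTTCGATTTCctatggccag
Ifih1, chr2:62646206-62646235: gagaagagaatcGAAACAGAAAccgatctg
Eif2ak2, chr17:78882535-78882564: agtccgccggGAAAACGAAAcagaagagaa
In Ddx58 the match is to the reverse complement, TTTC and TTTC with 2 bases between. The first matched base lay at -40 in Myd88, ahead of the start, and at +3, +33 and +19 in Ddx58, Ifih1 and Eif2ak2, counting the first base of the gene as +1. The promoters of Tlr2 and Tlr3 held no match to these letters. Of the other motifs sought, GAS (TTC and GAA with 3 bases between, in 8.30% of all promoters) was found in Myd88, where it overlapped the ISRE, and in Eif2ak2; kB (GGG and TTTCC with 2 bases between, in 1.63%) was found in Tlr3; and the TCF site CTTTGA (in 16.0%) was found in none of the 6. A match is a description of the sequence, and binding was not measured.

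Relative to BSA, sensor transcripts went down or did not pass the test, and none went up. Values are the signal of a probe divided by the 75th percentile of its array, here called relative signal, and changes are differences of log2 relative signal. A transcript is said to have fallen or risen where limma gave an adjusted p below 0.05, and to have been called at 2-fold where the change was also at least 2-fold. With Rspo2 6 of 14 probes fell, at 4 of the 10 genes when each gene was counted by its brightest probe; 5.92% of all tested probes fell in that comparison. Without BSA replicate 1, BSA replicate 3 or Rspo2 replicate 3 that count was 3 of 14. With Wnt3a 10 of 14 probes fell, at 7 genes, beside 13.2% of all probes. With both factors 9 of 14 fell, at 7 genes, beside 17.3%. No sensor probe rose in these 3 comparisons, whereas 10.9%, 18.3% and 21.9% of all probes did. At 2-fold 0, 2 and 3 of the 14 were called lower in these comparisons, where 0.620%, 2.11% and 3.79% of all probes were called lower; none was called higher, where 0.101%, 0.404% and 1.28% of all probes were. Ddx58 contributed 4 of the 14 probes and these share a gene, so the probes are not independent of one another. The 3 comparisons also share the same 3 BSA arrays.

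The median log2 change of the 14 probes was -0.35 with Rspo2, -0.59 with Wnt3a and -0.62 with both, against medians of 0.01, 0.00 and 0.04 over all tested probes. All 3 arrays of the treated group lay below all 3 BSA arrays for 11, 13 and 12 of the 14 probes, where 17.2%, 19.6% and 23.1% of all probes did so. They lay above all 3 BSA arrays for 1, 0 and 0 probes, where 26.3%, 25.9% and 30.9% of all probes did. The split of all probes between higher and lower depended on the scaling. With the 75th percentile taken over probes detected on all arrays, the split moved from 1347 lower and 2470 higher to 2318 lower and 1149 higher for Rspo2, from 3008 and 4153 to 4853 and 2665 for Wnt3a, and from 3931 and 4985 to 5364 and 3394 for both. That scaling moved the median of all probes to -0.09, -0.12 and -0.07, and under it 8, 12 and 10 of the 14 sensor probes fell and none rose. With slide fitted as a term, 1, 1 and 3 sensor probes fell, Tlr2 in each comparison and Dhx58 and Cd14 with both. With a background correction by normexp in place of the scanner's, 1, 2 and 3 fell.

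**Figure D1:**
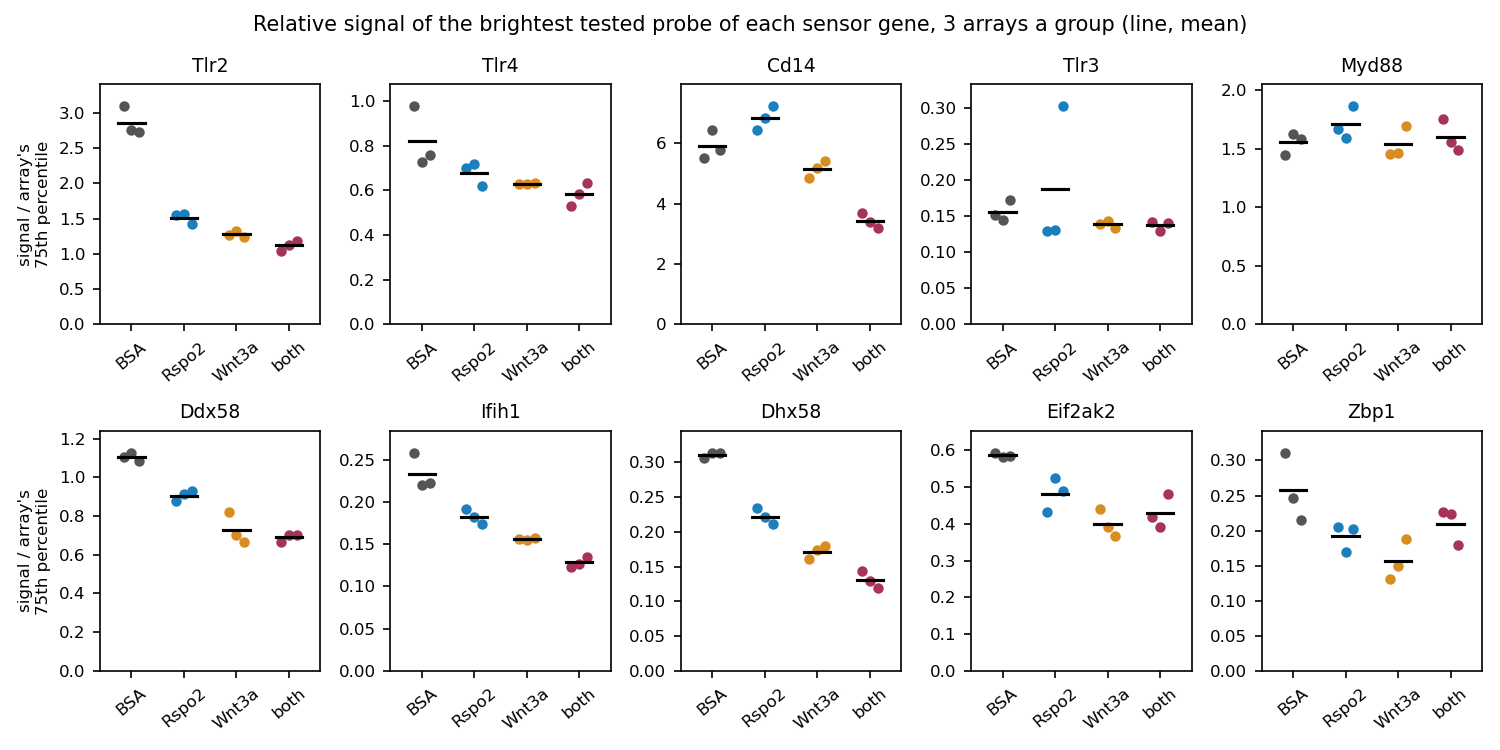
Relative signal (signal over the 75th percentile of the array, linear axis from 0) of the brightest tested probe of each of the 10 sensor genes in 4 treatment groups; each point is 1 array, the line is the mean of 3. Tlr2, Ifih1 and Dhx58 step down from BSA through Rspo2 and Wnt3a to both factors, Cd14 is lowest with both, and the groups of Myd88 overlap.

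Tlr2, the surface receptor for bacterial lipoproteins, showed the largest change of the set by its brightest probe. Its relative signal (probe A_51_P452629, printed 10 times per array) was 3.09, 2.76 and 2.73 in the BSA wells. It was 1.54, 1.57 and 1.42 with Rspo2, 1.26, 1.32 and 1.24 with Wnt3a, and 1.05, 1.12 and 1.19 with both. No array of one group overlapped any other group, and the order was BSA, Rspo2, Wnt3a and then the combination. Group means were 2.86 ± 0.202, 1.51 ± 0.0815, 1.27 ± 0.039 and 1.12 ± 0.071 (SD, n = 3). Rspo2 lowered Tlr2 1.89-fold (log2 change -0.92 ± 0.08, SE; adjusted p = 0.000382), Wnt3a 2.24-fold (-1.16 ± 0.08; 2.18e-05) and both 2.56-fold (-1.35 ± 0.08; 1.12e-06). With slide fitted as a term these log2 changes were -0.89, -1.10 and -1.25, with adjusted p of 0.0226, 0.0228 and 0.017. The further change on adding Rspo2 to Wnt3a was -0.19 (adjusted p = 0.245).

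Tlr4, the receptor for bacterial lipopolysaccharide, changed less. Its probe A_51_P300806, also printed 10 times, read 0.976, 0.728 and 0.758 with BSA and 0.698, 0.717 and 0.620 with Rspo2. It read 0.628, 0.630 and 0.632 with Wnt3a and 0.531, 0.584 and 0.635 with both. BSA replicate 1 stood above every other array, and all 9 treated arrays lay below the 3 BSA arrays. Rspo2, Wnt3a and both gave log2 changes of -0.27, -0.37 and -0.48 (adjusted p = 0.13, 0.0334 and 0.00755). As each of 6 arrays was left out, the Rspo2 change ran from -0.35 to -0.13 and passed the test in 0 fits. Without BSA replicate 1 the Wnt3a change was -0.24 with an adjusted p of 0.104, and the Wnt3a call was also lost without any 1 of the 3 Wnt3a arrays. The change with both factors kept an adjusted p below 0.05 whichever of its 6 arrays was left out. It passed the test in 17 of 20 alternative settings, and not with slide fitted as a term. Another probe named Tlr4 (A_52_P24230) was above background on 0 of 12 arrays and lay 86832 bases from the first by the coordinates in the files, beyond the 19031 bases of the gene.

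Cd14, the co-receptor that hands lipopolysaccharide to Tlr4, departed from both receptors. Its relative signal (A_51_P172853) was 5.50, 6.45 and 5.77 with BSA, 6.46, 6.84 and 7.23 with Rspo2, 4.85, 5.19 and 5.41 with Wnt3a, and 3.69, 3.39 and 3.18 with both. The combination lay below the 9 other arrays, the 3 Wnt3a arrays lay below the 3 BSA arrays, and the 3 Rspo2 arrays lay above them by a narrow margin. Neither factor alone passed the test, with log2 changes of 0.21 ± 0.09 for Rspo2 (adjusted p = 0.117) and -0.20 for Wnt3a (0.118). With both, Cd14 fell 1.73-fold relative to BSA (-0.79 ± 0.09; adjusted p = 0.0001). It also fell 1.51-fold when Rspo2 was added to Wnt3a (-0.59 ± 0.09; adjusted p = 0.00388).

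Tlr3, the endosomal receptor for double-stranded RNA, passed the test in none of the 5 comparisons by either probe. The brighter probe (A_51_P291906) read 0.152, 0.144 and 0.172 with BSA and 0.130, 0.131 and 0.302 with Rspo2. With Wnt3a it read 0.139, 0.143 and 0.133, and with both 0.142, 0.129 and 0.141. Rspo2 replicate 3 stood apart at 0.302, and with it the log2 change for Rspo2 was 0.15 ± 0.26 (adjusted p = 0.718); without it the change was -0.26 (0.13). The dimmer probe (A_52_P85174), 280 bases away and above background on 11 of 12 arrays, changed by -0.35, -0.27 and -0.29 on the log2 scale under Rspo2, Wnt3a and both (adjusted p = 0.0601, 0.105 and 0.0762). On that probe Rspo2 replicate 3 read 0.041, within its group.

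Myd88, the adaptor that most Toll-like receptors share, stayed within the spread of the wells. Its probe (A_52_P282762, 10 spots) read 1.45, 1.63 and 1.58 with BSA, 1.67, 1.59 and 1.86 with Rspo2, 1.46, 1.47 and 1.69 with Wnt3a, and 1.76, 1.56 and 1.49 with both, and the groups overlapped throughout. Rspo2 gave a log2 change of 0.14 (95% interval -0.08 to 0.35, adjusted p = 0.355), Wnt3a one of -0.02 (-0.23 to 0.20, 0.924) and both one of 0.04 (-0.18 to 0.26, 0.776). These intervals leave out a 2-fold change in either direction.

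**Figure D2:**
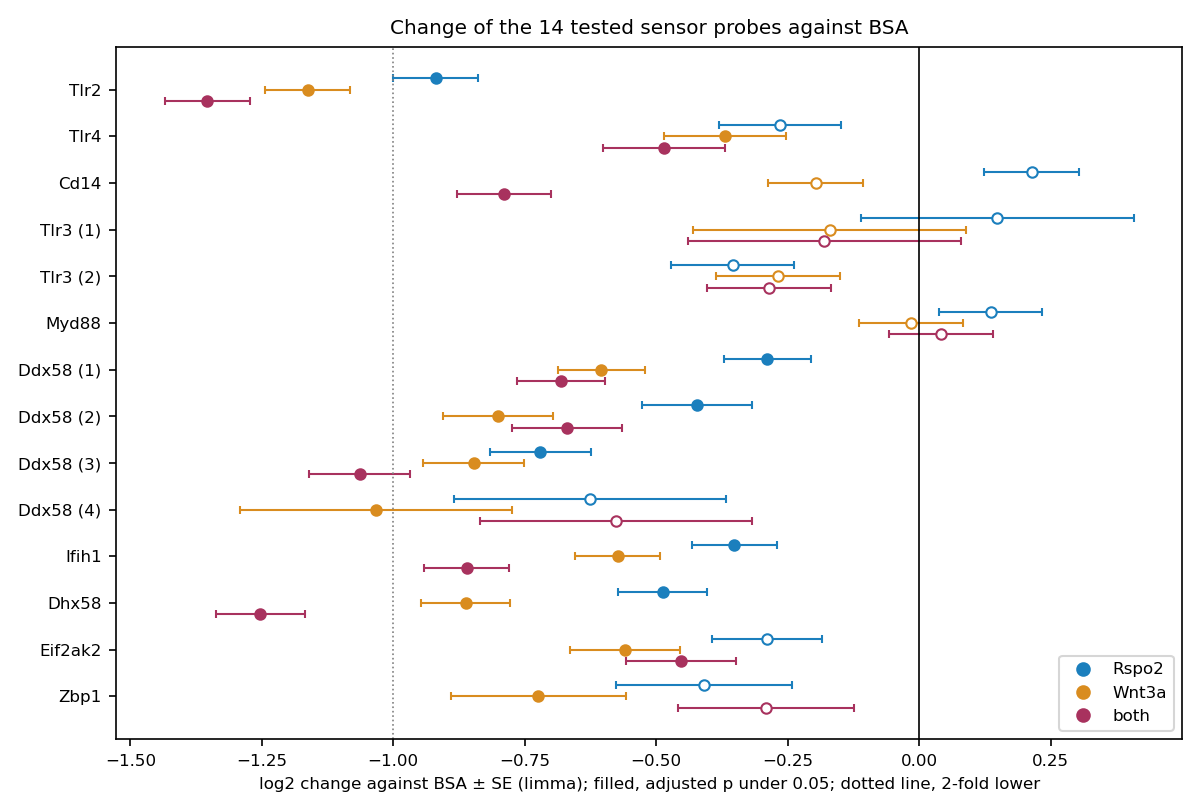
Log2 change relative to BSA ± SE (limma) of the 14 tested sensor probes with Rspo2, Wnt3a and both; filled points have an adjusted p below 0.05. Changes run from -1.35 for Tlr2 with both factors to 0.21 for Cd14 with Rspo2, and every filled point lies below 0.

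The 3 RNA helicases went down together, though with slide fitted as a term only Dhx58 of them passed the test, with both factors. Ddx58, which detects viral RNA with a 5′ triphosphate, was read by 4 probes. Probe A_52_P479001 gave 1.11, 1.13 and 1.08 with BSA, 0.875, 0.913 and 0.928 with Rspo2, 0.822, 0.701 and 0.667 with Wnt3a, and 0.668, 0.701 and 0.700 with both. Probe A_51_P393748 gave 1.12, 1.11 and 1.13, then 0.870, 0.865 and 0.781, then 0.701, 0.548 and 0.697, then 0.660, 0.767 and 0.694 in the same order of groups. On both probes every treated array lay below every BSA array, and the Wnt3a and combination arrays lay below the Rspo2 arrays. The log2 changes were -0.29, -0.60 and -0.68 on the first (adjusted p = 0.0403, 0.000946 and 0.000157) and -0.42, -0.80 and -0.67 on the other (0.0268, 0.000736 and 0.000745). As each array was left out, the Rspo2 change kept its call in 0 of 6 fits on the first probe and in 1 of 6 on the other.

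The remaining Ddx58 probes were dimmer and carried the 2-fold calls of this gene. Probe A_52_P385536 read 0.426, 0.514 and 0.424 with BSA, 0.279, 0.286 and 0.259 with Rspo2, 0.260, 0.251 and 0.244 with Wnt3a, and 0.220, 0.197 and 0.234 with both. Its groups with and without a factor did not overlap, and it fell by 0.72 on the log2 scale under Rspo2 (adjusted p = 0.004), by 0.85 under Wnt3a (0.000344) and by 1.06 under both, or 2.09-fold (2.14e-05). Over 20 alternative settings its Rspo2 change ran from -0.82 to -0.30 and passed the test in 17. Probe A_52_P523946 read 0.300, 0.218 and 0.212 with BSA, 0.204, 0.119 and 0.155 with Rspo2, 0.106, 0.092 and 0.166 with Wnt3a, and 0.132, 0.201 and 0.158 with both. Here only Wnt3a passed the test, 2.05-fold lower (-1.03 ± 0.26; adjusted p = 0.0125), and without Wnt3a replicate 2 that change was -0.86 with an adjusted p of 0.0533. By the coordinates in the files the 3 other probes lay 4076, 5785 and 19610 bases from A_51_P393748, the last being A_52_P523946. Which transcripts each probe reads was not established.

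**Figure D3:**
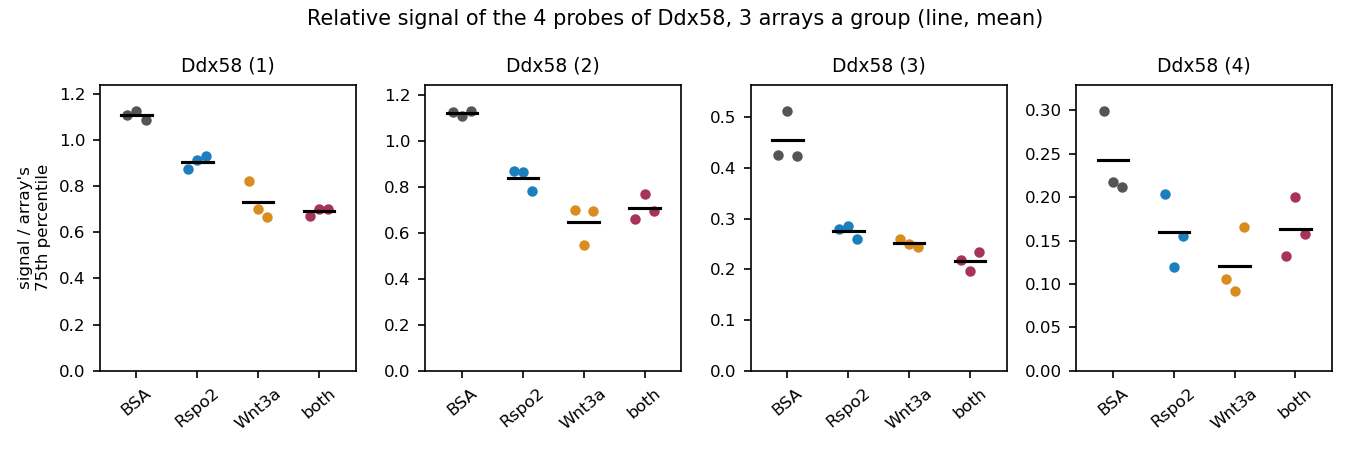
Relative signal (signal over the 75th percentile of the array) of the 4 Ddx58 probes in the 4 groups; each point is 1 array. The BSA arrays are the highest on each probe, from 1.13 on the brightest array to 0.212 on the dimmest, and the BSA and treated groups do not overlap on any of the 4.

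Ifih1, the sensor of long double-stranded RNA, read 0.258, 0.220 and 0.223 with BSA (A_51_P387810), 0.192, 0.182 and 0.174 with Rspo2, 0.157, 0.155 and 0.158 with Wnt3a, and 0.123, 0.127 and 0.135 with both. No group overlapped another and they followed the order seen for Tlr2. Ifih1 fell by 0.35 on the log2 scale under Rspo2 (adjusted p = 0.0224), by 0.57 under Wnt3a (0.00106) and by 0.86 ± 0.08 under both, 1.82-fold (2.71e-05). The Rspo2 call held in 2 of 6 fits that each left out 1 array. Under normexp background correction the Rspo2 change turned to 0.12 (adjusted p = 0.875), so its direction depends on that step. Another Ifih1 probe (A_52_P121468) was above background on 7 of 12 arrays and was not tested.

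Dhx58, the helicase without signalling domains, was lower under each treatment and lowest under both. Its relative signal (A_52_P223809) was 0.306, 0.313 and 0.313 with BSA, 0.234, 0.221 and 0.211 with Rspo2, 0.161, 0.173 and 0.179 with Wnt3a, and 0.144, 0.128 and 0.120 with both. Again no group overlapped another. Its log2 change was -0.49 under Rspo2 (adjusted p = 0.0114), -0.86 under Wnt3a (0.000157) and -1.25 ± 0.08 under both, 2.38-fold lower (2.56e-06). Dhx58 also fell by 0.39 when Rspo2 was added to Wnt3a (adjusted p = 0.0267), a call that held in 3 of 6 fits that each left out 1 array. With slide as a term the change with both was -1.24 (adjusted p = 0.0159), and those under Rspo2 and Wnt3a were -0.41 and -0.78 (0.2 and 0.07). Under normexp none of the 3 passed the test, at -0.12, -0.87 and -1.10 (0.871, 0.195 and 0.0731). A further probe named Dhx58 (A_51_P363218) was above background on 0 of 12 arrays.

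Eif2ak2, the kinase that halts translation on binding double-stranded RNA, fell with Wnt3a and with both factors. It read 0.594, 0.583 and 0.585 with BSA (A_52_P559919), 0.431, 0.526 and 0.489 with Rspo2, 0.440, 0.392 and 0.367 with Wnt3a, and 0.418, 0.392 and 0.482 with both. All 9 treated arrays lay below BSA, while the 3 treated groups overlapped one another. Under Rspo2, Wnt3a and both its log2 change was -0.29 ± 0.11, -0.56 and -0.45 (adjusted p = 0.0789, 0.00352 and 0.0064).

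Zbp1, the sensor of Z-form nucleic acid, passed the test with Wnt3a only. Its probe (A_51_P184936) read 0.311, 0.247 and 0.216 with BSA, 0.205, 0.170 and 0.203 with Rspo2, 0.131, 0.149 and 0.187 with Wnt3a, and 0.226, 0.223 and 0.179 with both. The Wnt3a and Rspo2 arrays all lay below BSA, while the combination arrays overlapped BSA. Rspo2 gave a change of -0.41 ± 0.17 on the log2 scale (adjusted p = 0.109), Wnt3a one of -0.72 ± 0.17 (0.00874) and both one of -0.29 (0.193). The difference between the combination and Wnt3a, 0.43, did not pass the test (adjusted p = 0.201).

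Adding Rspo2 to Wnt3a moved few sensors further. In that comparison 2 of 14 probes fell, those of Cd14 and Dhx58, where 2.49% of all probes fell, and none rose, where 1.78% did. None was called at 2-fold, with 0.334% of all probes called lower. The number of sensor probes that fell on adding Rspo2 to Wnt3a depended on the processing. It was 0 under normexp, 1 with slide as a term and 3 under quantile normalization. Over 20 alternative settings this fall passed the test in 18 for Cd14 and in 11 for Dhx58. All 3 combination arrays lay below all 3 Wnt3a arrays for 5 of 14 probes, where 10.6% of all probes did. The interaction, defined as the joint change less the 2 separate changes added, asked whether the response to Rspo2 differed with and without Wnt3a. It passed the test as positive for 3 probes, where 3.58% of all probes did, and as negative for 1, where 5.31% did; none of these was at least 2-fold, where 1.27% and 0.651% of all probes were. Ddx58 A_52_P523946 and Zbp1 had larger values that did not pass, 1.08 and 0.84 (adjusted p = 0.0843 and 0.0511). They were 0.15 and 0.10 under normexp and 0.20 and 0.47 with slide as a term. Tlr2 had an interaction of 0.73 ± 0.12 (adjusted p = 0.00626): Rspo2 lowered it by 0.92 without Wnt3a and its log2 change was -0.19 with Wnt3a present. Cd14 had one of -0.81 ± 0.13 (adjusted p = 0.00622), with a log2 change of 0.21 on adding Rspo2 to BSA and -0.59 on adding it to Wnt3a. The Ddx58 probes A_51_P393748 and A_52_P385536 gave 0.55 ± 0.15 and 0.50 ± 0.14 (adjusted p = 0.0446 and 0.0462). The Tlr2 and Cd14 interactions passed the test in all 12 fits that each left out 1 array, the Ddx58 ones in 4 and 0 of 12, and none passed with slide as a term or under normexp. In those fits Tlr2 was 0.73 and 0.84 and Cd14 -0.80 and -0.70, whereas Ddx58 A_52_P385536 was 0.04 under normexp. For Ifih1 and Dhx58 the interaction was 0.06 and 0.10 (adjusted p = 0.74 and 0.619).

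**Figure D4:**
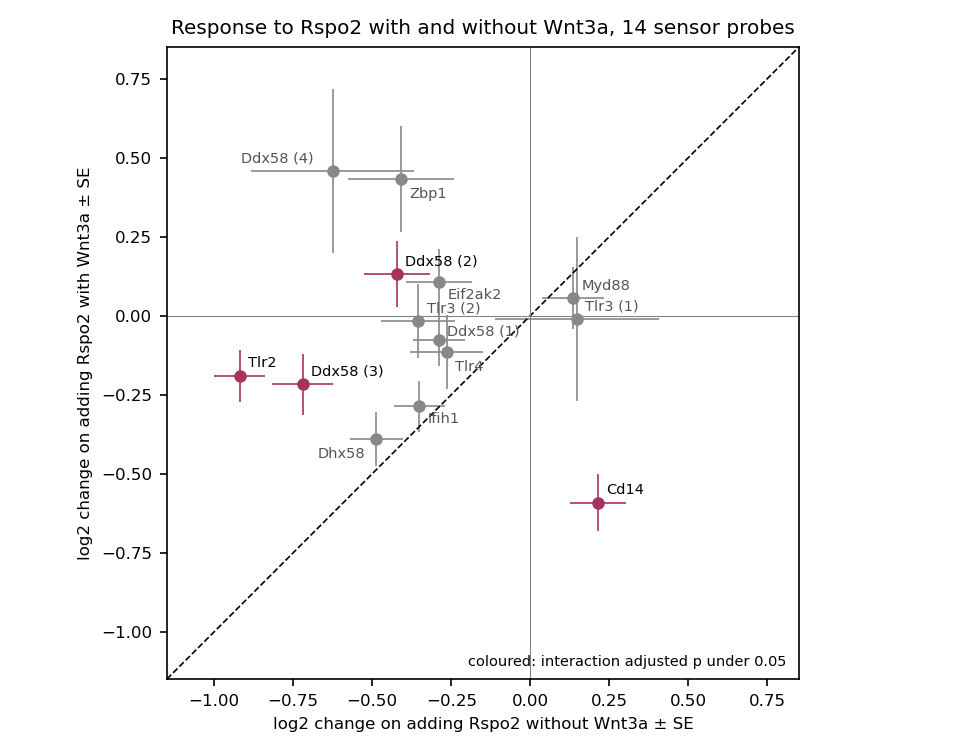
Log2 change ± SE on adding Rspo2 without Wnt3a (horizontal) and with Wnt3a (vertical) for the 14 sensor probes; on the dashed line both are equal, and coloured points have an interaction with an adjusted p below 0.05. Tlr2 and the 2 coloured Ddx58 probes lie above the line, Dhx58 and Ifih1 lie near it, and Cd14 lies below it at 0.21 and -0.59.

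Changes within a slide could be had for 3 contrasts only. On the slide with the BSA arrays, Rspo2 replicate 1 differed from their mean by -0.89 for Tlr2, -0.41 for Dhx58, -0.28 for Ifih1 and -0.22 for Tlr4 on the log2 scale, and by 0.13 for Cd14. On the next slide Wnt3a less Rspo2 was -0.21 for Tlr2, -0.37 for Dhx58, -0.19 for Ifih1 and -0.49 for Cd14. On the last slide the combination less Wnt3a replicate 3 was -0.15 for Tlr2, -0.46 for Dhx58, -0.30 for Ifih1 and -0.66 for Cd14. These contrasts reuse arrays of the fit over all arrays, so that a shared sign is partly built in. The sign differed from that over all arrays for Tlr3 A_51_P291906 on the first (-0.26 against 0.15) and, on the last, both Tlr3 probes (0.05 against -0.01 and 0.12 against -0.02), Myd88 (-0.09 against 0.06) and the Ddx58 probes A_52_P479001 (0.05 against -0.08) and A_52_P523946 (-0.04 against 0.46). The slide's part in the Wnt3a and combination changes relative to BSA cannot be told apart from the treatment within any 1 slide.

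The sensors did not all vary together over the 12 arrays, which share treatments and slides. Pearson's r of log2 signal was 0.960 between Ifih1 and Dhx58, 0.945 between Tlr2 and Ifih1, 0.921 between Tlr2 and Ddx58, 0.920 between Ddx58 and Ifih1, 0.528 between Cd14 and Tlr2, and -0.197 between Myd88 and Tlr2. Among probes above background on all 12 arrays, the genes most like Tlr2 were Gch1 (r = 0.994), Ifnar2 (0.988) and C3 (0.987), and those most like Cd14 were Deptor (0.989), Cxcl12 (0.984) and Orm2 (0.983). Ddx58 was most like 5530601H04Rik (0.985), Rrbp1 (0.974) and Stat2 (0.970). Ifih1 was most like Pdgfra (0.991), 3110001I20Rik (0.988) and Iigp1 (0.988), and Dhx58 was most like Flt1 (0.990), Ahdc1 (0.988) and 9530028C05 (0.985). The highest r was lower for Tlr3 (Wdr37, 0.935), Eif2ak2 (Tmem260, 0.937) and Zbp1 (LOC671950, 0.957) than for Tlr4 (Zfp704, 0.983) and Myd88 (Atat1, 0.971). These are the best among those of 20436 probes that had a symbol and a value on every array, and they only describe these arrays.

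The wider sensing pathways were read from a list of 74 other genes, of which 66 had a probe and 53 were tested. With Rspo2 4 genes fell and 2 rose, with Wnt3a 8 fell and 6 rose, and with both 11 fell and 11 rose, with medians of 0.05, 0.06 and -0.01. Over all tested probes 5.92% fell and 10.9% rose with Rspo2, 13.2% and 18.3% with Wnt3a, and 17.3% and 21.9% with both. By role, with both factors, 1 of 5 tested other Toll-like receptors fell (Tlr7) and 3 rose. Those that rose were Tlr1, Tlr6 (0.72, adjusted p = 0.00223) and Tlr9 (0.64, 0.0284). Tlr7 and Tlr1 were tested only through the groups where they were high, while Tlr6 and Tlr9 were above background on all 12 arrays. Of 5 co-receptors and chaperones 1 fell and 1 rose, and of 11 adaptors and kinases 0 fell and 2 rose. Of 13 partners of the RNA sensors 3 fell and 2 rose, of 5 NOD-like receptors and inflammasome genes 3 fell and 1 rose, and of 4 necroptosis partners of Zbp1 0 fell and 2 rose. Of 3 other eIF2 alpha kinases, 5 DNA sensing genes and 2 C-type lectin receptors, 1 fell in each. No probe was matched for Tlr11, Tlr12, Tlr13, Sarm1, Aim2, Nlrx1, Nlrc5 and Card9.

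**Figure D5:**
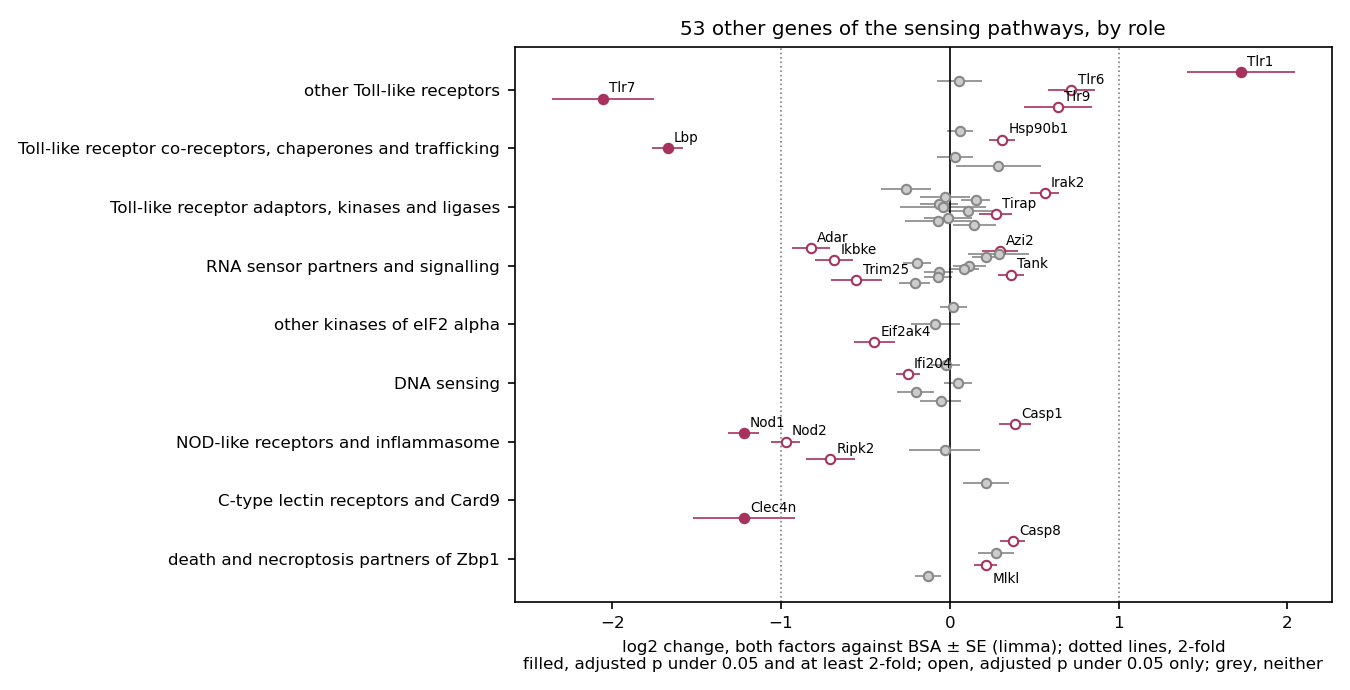
Log2 change ± SE (limma) with both factors relative to BSA for the 53 other tested genes, in rows by role; filled points were called at 2-fold, open points have an adjusted p below 0.05 only, and grey points neither. Lbp, Nod1, Clec4n and Tlr7 lie beyond 2-fold below 0 and Tlr1 beyond it above 0.

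Lbp, the serum protein that delivers lipopolysaccharide to Cd14, was lowest with both factors. It read 0.773, 0.935 and 0.955 with BSA, 0.902, 0.860 and 0.921 with Rspo2, 0.491, 0.525 and 0.537 with Wnt3a, and 0.288, 0.282 and 0.262 with both. The Rspo2 and BSA arrays overlapped, and the Wnt3a and combination groups lay below them, apart from each other. Its log2 change under Rspo2 was 0.02, under Wnt3a -0.77 (adjusted p = 0.000427) and under both -1.67 ± 0.09 (6.13e-07), and adding Rspo2 to Wnt3a lowered it by a further 0.90 (0.000269). Ly96, the subunit of the Tlr4 receptor that binds lipid, rose by 0.32 with Wnt3a (adjusted p = 0.0441) and gave 0.03 with both.

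Tlr1, which pairs with Tlr2, read 0.0614, 0.0256 and 0.021 with BSA, 0.0527, 0.0568 and 0.051 with Wnt3a and 0.105, 0.105 and 0.108 with both. It was above background on 1 of 3 arrays each of BSA and Rspo2 and on all 3 each of Wnt3a and both, so it was tested only through the groups where it was high. Its fitted log2 change with both was 1.73 ± 0.32 (adjusted p = 0.00188), against a BSA group mostly not above background. Tlr7, an endosomal sensor of single-stranded RNA, was above background on all 3 BSA arrays, 2 each of Rspo2 and Wnt3a and 1 of the combination. It was tested only through BSA, where it was high, and its fitted log2 change was -1.09 with Wnt3a (adjusted p = 0.02) and -2.05 ± 0.30 with both (0.00053), the latter against a group mostly not above background. The Wnt3a call was lost without BSA replicate 1, BSA replicate 3 or Wnt3a replicate 3. For both genes the fitted size is therefore uncertain.

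Nod1 and Nod2, cytosolic sensors of bacterial cell wall fragments, fell with every treatment. Nod1 read 1.28, 1.24 and 1.22 with BSA, 0.751, 0.805 and 0.741 with Rspo2, 0.763, 0.712 and 0.666 with Wnt3a, and 0.486, 0.516 and 0.605 with both. Nod2 read 1.32, 1.38 and 1.30, then 0.662, 0.610 and 0.560, then 0.684, 0.644 and 0.614, then 0.638, 0.677 and 0.730 in the same order. In Nod1 the combination lay below each factor alone, while in Nod2 the 3 treated groups overlapped. Nod1 changed by -0.70, -0.80 and -1.22 on the log2 scale (adjusted p = 0.00363, 0.000352 and 5.75e-06), and Nod2 by -1.13, -1.05 and -0.97 (0.000152, 5.3e-05 and 1.66e-05). Clec4n, the lectin Dectin-2, was above background on 3, 1, 2 and 3 arrays with BSA, Rspo2, Wnt3a and both. Its fitted log2 changes were -1.65, -1.78 and -1.22 (adjusted p = 0.0131, 0.00225 and 0.0089), the first resting on a group mostly not above background and not holding without Rspo2 replicate 3 (0.0525).

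With both factors 0 of the 11 Toll-like receptor adaptors, kinases and ligases fell and 2 rose. Of the 13 RNA sensor partners 3 fell and 2 rose, where 17.3% and 21.9% of all probes did. The changes of single genes follow. Mavs, the adaptor of Ddx58 and Ifih1, rose by 0.29 with Wnt3a (adjusted p = 0.043) and gave 0.18 with Rspo2 and 0.12 with both. Trim25, the ligase that activates Ddx58, fell by 0.55 ± 0.15 with both (adjusted p = 0.0137). Tirap, which bridges Tlr2 and Tlr4 to Myd88, rose by 0.27 with both (0.0454), and Mlkl, the effector of necroptosis, by 0.21 (0.0275). Ticam1, the adaptor of Tlr3, Unc93b1, which carries endosomal receptors, the kinase Tbk1 and its target Irf3 passed the test in none of the 3 comparisons with BSA, with log2 changes of 0.11, 0.29, -0.07 and -0.19 with both factors. Outside the naming rule and chosen after their values were seen, Irak2, a kinase downstream of Myd88, rose with every treatment (0.54, 0.53 and 0.56; adjusted p = 0.00887, 0.00194 and 0.000725). Chosen in the same way, Casp8 also rose with every treatment (0.28, 0.28 and 0.37, adjusted p = 0.0312, 0.0156 and 0.00288). Adar fell with every treatment (-0.65, -0.63 and -0.82, adjusted p = 0.0109, 0.00273 and 0.000309). Ikbke, a kinase related to Tbk1, gave -0.32 with Rspo2 (0.0708) and fell with Wnt3a and with both (-0.78 and -0.69; 0.00126 and 0.00105), as did Ripk2, the kinase of Nod1 and Nod2 (-0.54 and -0.71; 0.0162 and 0.00323), which gave -0.19 with Rspo2 (0.378). Ripk3, the kinase between Zbp1 and Mlkl, was above background on 0 of 12 arrays.

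Markers of other cell types were read beside these changes. The summed relative signal of the 7 leukocyte markers was 1.82, 1.74 and 1.78 with BSA, 2.22, 2.30 and 2.36 with Rspo2, 2.20, 2.33 and 2.21 with Wnt3a, and 1.80, 1.84 and 1.85 with both, with Lyz2 the brightest. This sum was higher with each factor alone than with BSA, and with both it was close to BSA. Cd3e went the other way, with log2 changes of -0.79 with Rspo2 (adjusted p = 0.118), -1.01 with Wnt3a (0.0397) and -0.14 with both (0.776). Of 3 endothelial markers, Pecam1 was above background on 1 array and Kdr on 0, and the sum rested on Cdh5, which fell by 0.41, 0.49 and 0.55 (adjusted p = 0.0116, 0.00131 and 0.000259). The luminal marker Krt8 fell by 0.69 with Wnt3a and 1.15 with both (adjusted p = 0.00896 and 0.000366), and the basal marker Krt14 rose by 1.24 with both (8.28e-06). Krt5, another basal marker, fell with Rspo2 and with Wnt3a (-0.84 and -0.57; 0.0212 and 0.0405) and gave 0.22 with both (0.387). The summed signal of 5 basal markers, mostly Acta2, was 138, 132 and 140 with BSA, 180, 170 and 192 with Rspo2, 188, 184 and 206 with Wnt3a, and 257, 244 and 220 with both, so it was lowest in BSA. The part of such shifts in the sensor changes was not tested, and in RNA of whole wells fewer cells of one kind cannot be told apart from less RNA per cell.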

How the data were processed

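RNA of 12 wells (4 groups of 3, grouped by their labels) was measured on single-colour Agilent mouse 4x44K arrays. The deposited scanner files hold spot intensity that the authors background-subtracted with Agilent Feature Extraction 9.5.3.1. The deposited value table holds a ratio of signal to the array's 75th percentile (medians 0.05 to 0.08; rank correlation with the scanner signal 0.967 to 0.989), with no log or centring. The genome build of the files' coordinates is not given in the sources used here. After control spots and 1327 of 520548 outlying spot values were left out, 43379 spots were averaged to 41174 probes and divided by the array's 75th percentile. Symbols came from RefSeq for 22951 probes and from the files for 11758. No probe was saturated, and 3 arrays a group limit the precision.

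Changes were fitted by limma 3.58.1 (R 4.3.3) over all 12 arrays with 4 group means. P-values were adjusted by Benjamini-Hochberg over 22751 probes in each of 5 comparisons; the threshold was an adjusted p below 0.05, with or without at least 2-fold. The methods' t-test with unequal variances was an alternative, as were quantile normalization, normexp (offset 50), the authors' value table, percentiles over probes detected on all arrays, no filter or a stricter one, no spot left out, slide as a term or random block, a replicate block, the compared groups only, and leaving out each array. The procedure was tested on simulated data. Members and lists were chosen with earlier results of these data known. One listed marker gene is not reported here. All probes of the 10 sensors are described. Other pathway genes are named where called at 2-fold in a comparison or listed as a sensor's direct partner. Some others that passed the test are named as well. Figures used Python 3.11.15 and matplotlib 3.10.9.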

Additional observations from a re-analysis of the deposited data

Results flagged for a closer look

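For 10 probes, 4 of 14 of the sensors and 6 of 53 of the other pathway genes, the response to Rspo2 differed with and without Wnt3a by the interaction term of the limma fit, given on the log2 scale with Benjamini-Hochberg adjusted p. Over all tested probes 5.31% had a negative and 3.58% a positive interaction past the threshold, and the 4 negative and 2 positive of 53 pathway genes are near these shares. Of the sensors these were Tlr2 at 0.73 (adjusted p = 0.00626), Cd14 at -0.81 (0.00622) and the Ddx58 probes A_51_P393748 at 0.55 (0.0446) and A_52_P385536 at 0.50 (0.0462). Tlr2 stayed between 0.67 and 0.78 and Cd14 between -0.87 and -0.75 as each array was left out, with adjusted p of at most 0.0232 and 0.0222, while the Ddx58 probes passed the test in 4 and 0 of 12 such fits. Of the other pathway genes these were Ly96 at -0.57 (0.0459), Irak2 at -0.51 (0.0332), Ifi204 at -0.37 (0.0453), Lbp at -0.92 (0.00368), Nod2 at 1.20 (0.000575) and Clec4n at 2.22 (0.0158), the last with 1 of 3 Rspo2 arrays and 2 of 3 Wnt3a arrays above background, so that its size is uncertain. Lbp, Nod2 and Clec4n passed the test in all 12 fits that each left out 1 array. Such fits are not given here for Ly96, Irak2 and Ifi204. Each of these interactions draws on BSA arrays of one slide and combination arrays of another. With slide as a term 0 of the 4 sensor interactions passed the test (Tlr2 0.73, adjusted p = 0.109; Cd14 -0.80, 0.101), nor did Lbp (-0.98, 0.0664) or Clec4n (1.77, 0.243), while Nod2 did (1.16, 0.0163). Under normexp none of the 4 sensor interactions passed, nor did Nod2 at 0.89 (0.35), Lbp at -0.86 (0.168) or Clec4n at 0.12 (0.97). Neither alternative is given here for Ly96, Irak2 and Ifi204.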

How the results depend on the processing

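The number of sensor probes called lower at 2-fold with Rspo2 was 0 and became 1 (Tlr2, at -1.0 and -1.02) under quantile normalization and with percentiles over probes detected on all arrays. With Wnt3a the 2 probes became 1 under quantile normalization, normexp, the methods' t-test after Benjamini-Hochberg, slide as a term and slide as a random block. With both factors the 3 became 1 under normexp, and with slide as a term the call of Ddx58 A_52_P385536 was lost. The interaction had 0 probes called higher and 1 by the methods' t-test without adjustment. Without the fold requirement the counts lower were 6, 10, 9 and, on adding Rspo2 to Wnt3a, 2, and for the interaction 1 lower and 3 higher. Leaving out each array gave 1 to 2 probes with Wnt3a, 2 to 3 with both, 0 to 1 higher in the interaction and 0 to 0 elsewhere. The Wnt3a call of Ddx58 probe A_52_P523946 was lost without BSA replicate 1 (-0.87), Wnt3a replicate 1 (-0.96) or Wnt3a replicate 2 (-0.86), and the combination call of A_52_P385536 without BSA replicate 2 (-0.97) or combination replicate 2 (-1.0). One direction turned among values past the threshold, that of Ifih1 with Rspo2 under normexp (0.12). Of 2080 recomputed values 54 differed in sign, and 53 of these passed the test under neither setting. Over all probes the calls at 2-fold were 164, 573 and 1155 with Rspo2, Wnt3a and both, 65, 146 and 500 with slide as a term, 3, 35 and 330 under normexp, and 2, 165 and 692 by the methods' t-test after Benjamini-Hochberg; the cause was not tested. By that t-test 0, 2 and 6 sensor probes fell, and in fits of the compared groups alone 4, 9 and 10. With a replicate block 3, 9 and 9 sensor probes fell and the 2-fold counts stayed at 2 and 3. Same-numbered deviations correlated from -0.525 to 0.322, and 3 of 18 pairs exceeded 0.1. Differently numbered pairs were not computed beside them, so whether same-numbered wells shared handling was not established. Signal over background limits Tlr1, Tlr7, Clec4n and the dimmer Tlr3 probe, which were not above background on every array. Dim probes above background on all 12 arrays also depended on the processing. Over 20 alternative settings the Rspo2 change ran from -0.82 to 0.08 for Ddx58 A_52_P523946 and from -0.53 to 0.11 for Zbp1. For Ifih1 it ran from -0.45 to 0.12 and for Dhx58 from -0.59 to -0.12.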
